A study of Bos taurus with 36 samples.

Results

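The genes described here are the fibroblast growth factor (FGF) ligands, their receptors and the Sprouty and SPRED inhibitors of cattle. They were taken as every gene of the deposited count table whose bovine RefSeq protein-coding symbol is FGF followed by a number, FGFR1 to FGFR4, FGFRL1, SPRY1 to SPRY4 or SPRED1 to SPRED3. The rule found 34 of the 35092 genes of the table, namely 18 genes for secreted ligands, 4 for the intracellular FGF proteins, 5 for receptors, 4 for Sprouty and 3 for SPRED proteins. Of these, 30 had at least 1 count in 1 of the 36 libraries, and 25 reached a mean of 1 CPM (counts scaled to the library total, with TMM factors) in at least 1 tissue.

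Secreted FGF proteins bind receptor tyrosine kinases at the cell surface together with heparan sulfate, and the activated receptor signals through adaptors, RAS and the MAP kinases. Most ligands act on neighboring cells, whereas the endocrine group (FGF19, FGF21 and FGF23) travels in the blood and needs a Klotho co-receptor. Sprouty and SPRED proteins restrain RAS-MAPK signaling and are themselves often induced by it. In the embryo, FGF signaling is known for its part in branching of epithelia, in the growth of the heart wall and in the survival of nephron progenitors, and in the liver the receptor FGFR4 takes part in the control of bile acid synthesis.

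RNA came from organs of 10 male bovine fetuses collected at Day 42 of gestation, and from maternal blood drawn from their recipient heifers. Day 7 embryos had been placed in the recipients on Day 7 (ET_D7) or Day 9 (ET_D9) of the estrous cycle, with 5 fetuses in each group. Numbers follow weight, so that fetus 1 was the lightest (1.253 g) and fetus 10 the heaviest (1.69 g). The heaviest ET_D7 fetus weighed 1.37 g and the lightest ET_D9 fetus 1.396 g, so weight and transfer group cannot be told apart. The 9 heart, 9 gonad and 8 liver libraries were made with a stranded mRNA kit and the 10 maternal blood libraries with another kit, so blood levels are given beside the organs without a test. Each library is whole tissue, in which fewer cells of a type and less RNA per cell cannot be told apart.

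Library totals ranged from 18231089 to 40812354 counts. Before any comparison, the columns of each tissue were compared with each other. For most genes compared, 6 of the 26 organ columns followed other columns of the same organ to within counting noise. The heart column of fetus 1 followed a weighted sum of those of fetuses 2, 3, 4 and 5, the gonad columns of fetuses 6 and 8 followed weighted sums of those of fetuses 7, 9 and 10, and the liver column of fetus 9 followed one of those of fetuses 8 and 10. Weights were held at 0 or above and refitted on the 70% of genes that agreed best, so the fit does not settle which of the linked columns was derived. Among counts from 1 to 20, 72.65% were even in the liver column of fetus 9. The liver columns of fetuses 8 and 10, the only ET_D9 livers kept, had 59.72% and 54.94%. Whether these kept columns are independent samples was not tested further. Some genes lay off the sums, and the ratio of the gonad column of fetus 8 to its sum was 1.87 at the 95th percentile. The liver columns of fetuses 1 and 2 followed each other up to a factor. The deviation of these 6 columns from the columns named, as the median squared residual in units of Poisson variance, was between 0.140 and 0.938. The other 30 columns, fitted on all other columns of their tissue, deviated by 5.397 to 79.7. In that fit, where each had the other among its columns, the gonads of fetuses 6 and 8 deviated by 0.0468 and 0.0011. The 4 sums were therefore left out and the liver pair was counted as 1 sample, which left 8 heart, 7 gonad and 6 liver samples. Labels do not say whether RNA from different animals was combined. Replicates are separate fetuses by their labels.

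The markers of the labelled tissue were measured alongside. The 7 cardiomyocyte markers summed to between 35990 and 51870 CPM in the heart, and the 6 hepatocyte markers to between 26160 and 51070 CPM in the liver. In the liver samples the cardiomyocyte markers summed to between 10.0 and 1968 CPM, highest in fetus 3, where FGF6 also had its liver counts. ACTC1 alone reached 1866 CPM in the liver, and the part of these markers in the liver levels was not tested. The third organ is labelled fetal testicle, and its libraries are called gonad here. In them the 6 Sertoli cell markers summed to only 4.04 to 9.91 CPM, the 5 Leydig cell markers to 6.74 to 14.4 CPM and the 5 germ cell markers to 0.401 to 3.08 CPM. GATA4, a factor of the gonadal somatic cells, did not exceed 0.120 CPM there, and NR5A1 did not exceed 1.11 CPM. The 11 markers of nephron progenitors, mesonephros and kidney summed to between 419 and 525 CPM in the same libraries, against 24.6 to 69.0 CPM in the heart and 117 to 275 CPM in the liver. PAX2 was between 103 and 137 CPM, SIX2 between 28.7 and 62.1 CPM and RET between 29.4 and 41.4 CPM in the gonad libraries. The label thus goes against its defining markers, and the part of this in the levels below was not tested.

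FGF1, FGF4, FGF7 and SPRY4 were listed at 0 in all 36 libraries. The table also lists 0 for 1427 of the 18390 named protein-coding genes, among them TPI1, RPL35A, CCND1 and PSMD13, which cells use widely (these 4 were picked after their values were seen). Nothing is therefore said of the level of the 4 members.

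**Figure D1:**
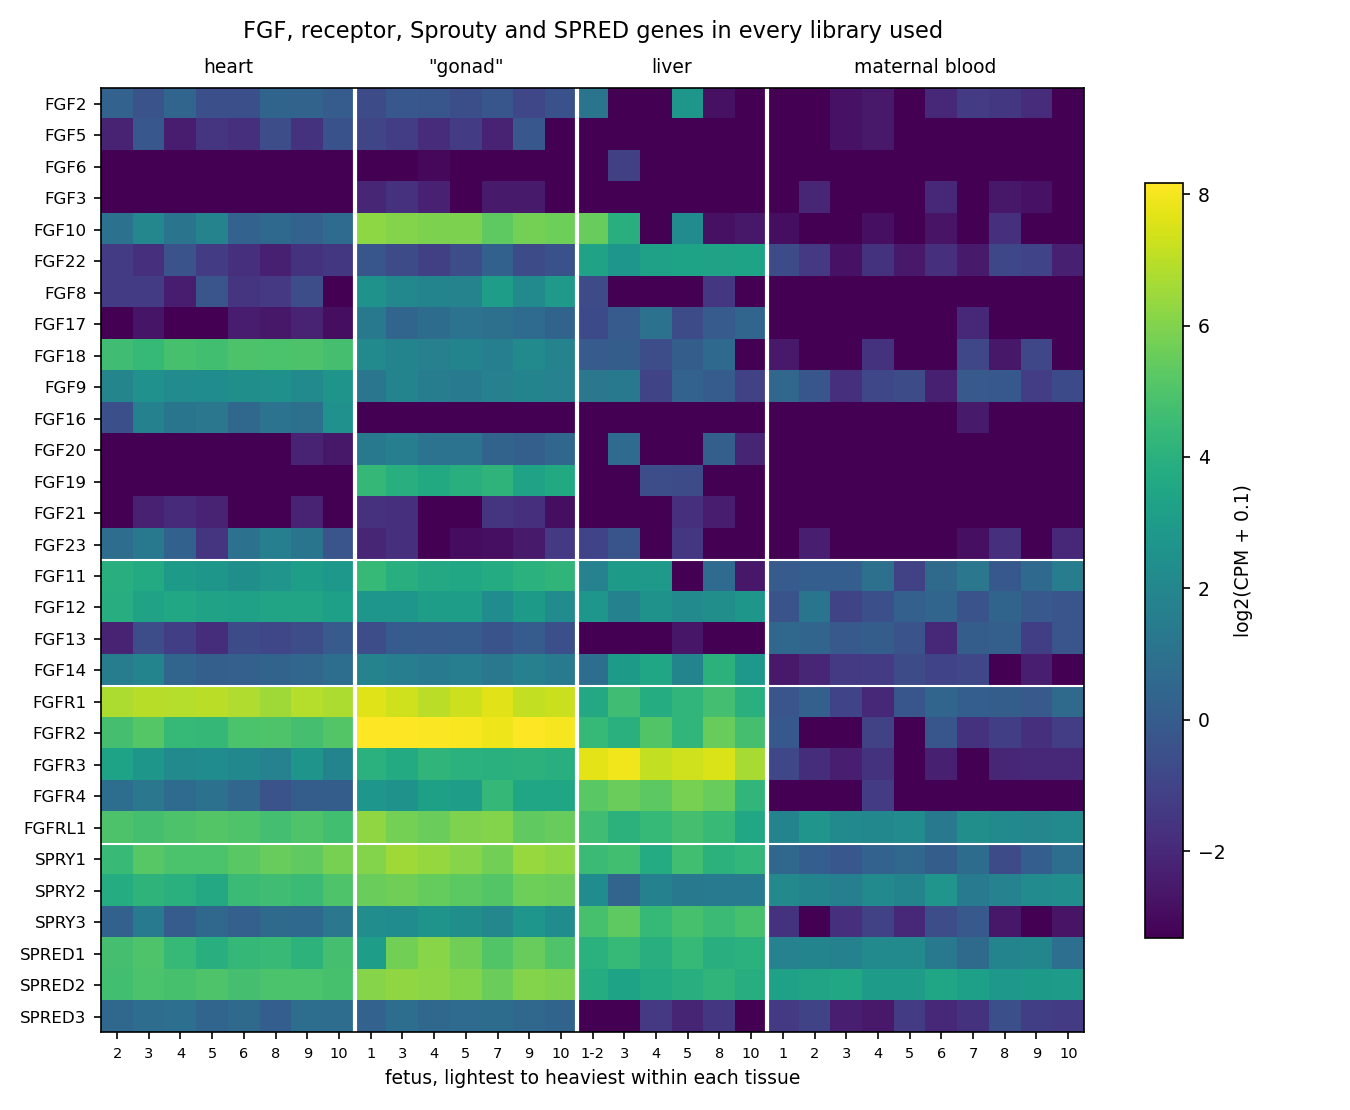
Level of the 30 members with a count, as log2(CPM + 0.1), in the 31 samples used, with 1 column per fetus from lightest to heaviest in each tissue. White lines part secreted ligands, intracellular FGF, receptors and inhibitors, from top to bottom. FGFR2 is brightest in the gonad columns, FGFR3 and FGFR4 in the liver columns, and FGF18 in the heart columns, whereas blood columns are dark for most ligands.

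The first comparison asked how the levels differed between the 3 organs. In edgeR's quasi-likelihood test over 24872 genes, with Benjamini-Hochberg adjusted p under 0.05 over all of them, 17 of the 30 members tested were higher in the gonad than in the liver and 6 were higher in the liver. Over all genes these calls took 28.1% and 30.8%. Between heart and gonad, 17 members were higher in the gonad and 4 in the heart, against 20.6% and 21.0% of all genes. Between heart and liver, 13 members were higher in the heart and 10 in the liver, against 25.4% and 28.5% of all genes. The 3 comparisons share their libraries pairwise. The median log2 fold change of the members was 1.65 for gonad over liver (1.37 with genes at 0 in an organ set to their bound), −0.92 for heart over gonad and 0.48 for heart over liver, and over all genes it was 0, −0.085 and 0.

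Counting a gene for an organ when it was called higher there than in both others, 11 members were highest in the gonad, where 12.8% of all genes were. These were FGF3, FGF8, FGF10, FGF19, FGFR1, FGFR2, FGFRL1, SPRY1, SPRY2, SPRED1 and SPRED2. The liver had 6 such members (21.1% of all genes), which were FGF6, FGF14, FGF22, FGFR3, FGFR4 and SPRY3. The heart had 4 (9.80% of all genes), which were FGF12, FGF16, FGF18 and FGF23. Counted the other way, 10 members were lowest in the liver (17.6% of all genes), 8 in the heart (7.08%) and 0 in the gonad (11.9%). Of those lowest in the liver and in the heart, 6 and 6 are also among those highest in another organ.

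Of the ligands that signal to epithelia through FGFR2, FGF10 is the mesenchymal factor of lung and limb budding. FGF10 (Entrez 326285) ranged from 39.7 to 75.2 CPM in the gonad, with a median of 59.3 CPM, and from 1.11 to 3.87 CPM in the heart, with a median of 1.72 CPM. Every gonad sample lay above every heart sample. The log2 fold change of heart over gonad was −4.81 (SE 0.88, adjusted p = 9.64e-05, edgeR). The liver samples held 921, 253, 0, 142, 1 and 1 counts of FGF10 for fetuses 1 and 2 together, 3, 4, 5, 8 and 10, which is 0 to 45.1 CPM. FGF10 thus spanned the whole range of the heart and reached that of the gonad within 1 organ. The log2 fold change of gonad over liver was 2.42 (SE 0.88, adjusted p = 0.0217) and lost the call without fetus 1 (adjusted p = 0.0571) or fetus 5 (adjusted p = 0.0616). The call of liver over heart for FGF10 (log2 fold change of heart over liver −2.39, SE 0.83, adjusted p = 0.0188) rested on the liver sample of fetuses 1 and 2, without which it was −0.92 (adjusted p = 0.307). With fetus as a block the difference turned to 0.45 (adjusted p = 0.744). That liver sample was alone in its block, so the block fit also left it out of the difference and is not a separate check.

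FGF22, a ligand of the same subfamily known for its part at synapses, was highest in the liver. FGF22 (Entrez 519657) ranged from 6.53 to 10.2 CPM there, with a median of 9.85 CPM, from 0.357 to 1.101 CPM in the gonad and from 0.104 to 0.669 CPM in the heart. The liver samples lay above all others. The log2 fold change of gonad over liver was −3.87 (SE 0.36, adjusted p = 3.22e-09) and that of heart over liver −5.05 (SE 0.37, adjusted p = 4.62e-11). The smaller difference between heart and gonad (−1.18, adjusted p = 0.00616) lost its call with fetus as a block (−0.89, adjusted p = 0.156). FGF3, the third gene of the subfamily with counts, held 0 to 11 counts per gonad sample and 0 in every heart and liver sample, and both its calls were lost with fetus as a block (adjusted p = 0.307 against the heart and 0.391 against the liver).

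The FGF8 subfamily was split between organs. FGF8, which patterns the early embryo and is needed for nephron formation, ranged from 3.48 to 8.47 CPM in the gonad with a median of 4.46 CPM, whereas no heart sample exceeded 0.718 CPM and no liver sample 0.539 CPM. Heart over gonad had a log2 fold change of −4.12 (SE 0.75, adjusted p = 8.36e-05) and gonad over liver one of 5.24 (SE 0.91, adjusted p = 2.94e-05). FGF17 ranged from 1.21 to 2.38 CPM in the gonad and from 0.490 to 1.89 CPM in the liver, groups that overlapped and were not called apart (log2 fold change of gonad over liver 0.78, SE 0.50, adjusted p = 0.181). In the heart FGF17 did not exceed 0.111 CPM or 2 counts, and its log2 fold change of heart over gonad was −5.11 (SE 0.57, adjusted p = 1.02e-07) and of heart over liver −4.32 (SE 0.57, adjusted p = 7.45e-07).

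FGF18, known for its part in bone and lung growth, went the other way. FGF18 (Entrez 533929) ranged from 20.6 to 31.5 CPM in the heart with a median of 28.1 CPM, from 3.02 to 4.44 CPM in the gonad and from 0 to 1.42 CPM in the liver, and no pair of organs overlapped. FGF18 differed by a log2 fold change of heart over gonad of 2.92 (SE 0.34, adjusted p = 1.89e-07), of heart over liver of 5.09 (SE 0.41, adjusted p = 2.35e-10) and of gonad over liver of 2.17 (SE 0.37, adjusted p = 2.36e-05).

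In the FGF9 subfamily each gene had its own order of organs. FGF16, a growth factor of the heart muscle, was counted in all 8 heart samples (10 to 167 counts, 0.595 to 5.48 CPM, median 2.05 CPM) and was at 0 in all 7 gonad and 6 liver samples. Among the columns left out, the heart of fetus 1 held 0 counts of FGF16 and the gonad of fetus 6 held 4. The mean of FGF16 in the heart was at least 29.3-fold that in the gonad and at least 11.2-fold that in the liver, taking 3 counts in a library as the most that a count of 0 allows (adjusted p = 1.19e-06 and 4.69e-06, edgeR). These bounds cover counting error only and take each count as 1 molecule. The share of even counts given below goes against this, so the bounds may be too high. FGF9, which acts from the outer and inner lining of the heart on its muscle, ranged from 3.69 to 6.003 CPM in the heart, from 2.19 to 3.56 CPM in the gonad and from 0.389 to 2.39 CPM in the liver. FGF9 was higher in the heart (log2 fold change over the liver 1.98, SE 0.36, adjusted p = 7.07e-05) and in the gonad (1.26, SE 0.36, adjusted p = 0.0048) than in the liver. The heart and gonad samples of FGF9 did not overlap, but the difference missed the threshold (0.72, SE 0.33, adjusted p = 0.0822) and passed it in DESeq2's Wald test (adjusted p = 0.0181).

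FGF20, a ligand of nephron progenitors, ranged from 1.02 to 2.96 CPM in the gonad with a median of 1.98 CPM. It was at 0 in 6 of 8 heart samples and in 3 of 6 liver samples, with 2 counts at most in the heart and 26 in the liver. The log2 fold change of FGF20 of heart over gonad was −6.21 (SE 1.10, adjusted p = 6.39e-05) and of heart over liver −4.17 (SE 1.10, adjusted p = 0.00261), and the latter call was lost with fetus as a block (adjusted p = 0.111). Gonad over liver was 2.04 (SE 0.94, adjusted p = 0.0657).

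Of the endocrine ligands, FGF19, the intestinal signal that lowers bile acid synthesis in the liver, was counted almost wholly in the gonad libraries. FGF19 (Entrez 521475) ranged there from 9.69 to 20.3 CPM with a median of 14.8 CPM and from 493 to 978 counts. No heart sample held a count, and of the liver samples only those of fetuses 4 and 5 did, with at most 16. The gonad mean was at least 81.7-fold that in the heart (adjusted p = 2.27e-07), and the log2 fold change of gonad over liver was 6.30 (SE 0.87, adjusted p = 9.49e-06). The liver was also called above the heart (adjusted p = 0.00224), from those counts in 2 liver samples, without a bound on the fold. FGF23, the bone hormone that controls phosphate, ranged from 0.239 to 2.97 CPM in the heart with a median of 1.74 CPM, against at most 0.285 CPM in the gonad and 0.700 CPM in the liver. The lowest heart sample overlapped both. The log2 fold change of FGF23 of heart over gonad was 3.87 (SE 0.88, adjusted p = 0.001) and of heart over liver 2.82 (SE 0.91, adjusted p = 0.0119), and the latter became 3.41 (adjusted p = 0.0619) with fetus as a block. FGF21, the hormone of fasting liver in the adult, had at most 6 counts in a liver sample, 4 in a heart sample and 12 in a gonad sample.

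**Figure D2:**
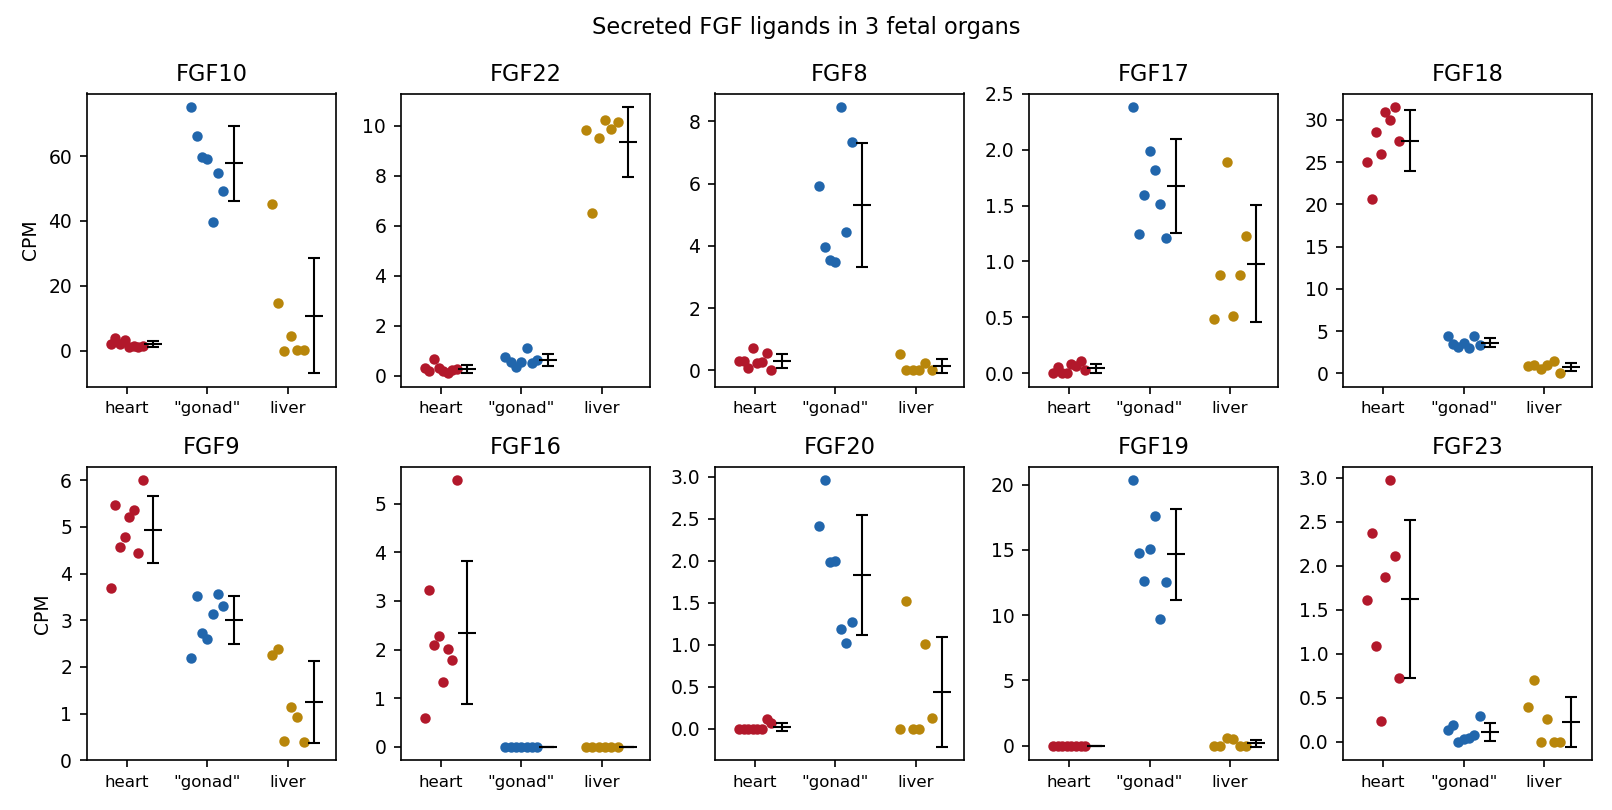
CPM of 10 secreted ligands in the heart (8 samples), gonad (7) and liver (6), with 1 point per sample from the lightest fetus (left) to the heaviest within each organ and a bar for the mean and SD. FGF18 and FGF16 stand apart in the heart, FGF19, FGF8 and FGF10 in the gonad and FGF22 in the liver, and 1 liver sample of FGF10 lies at 45.1 CPM.

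The remaining secreted ligands were low. FGF2, which acts on most mesenchymal cells, ranged from 0.599 to 1.26 CPM in the heart and from 0.452 to 0.772 CPM in the gonad, and none of its 3 comparisons was called. In the liver, FGF2 was at 0 or 1 count in 4 of 6 samples and at 207 counts in fetus 5. FGF5, an inhibitor of hair growth in the adult, held 2 to 28 counts in the heart samples, 0 to 39 in the gonad samples and 0 in all liver samples, and the liver was called below the heart (adjusted p = 0.000322) and the gonad (adjusted p = 0.000428). The heart mean of FGF5 was at least 1.70-fold that of the liver by the same floor of 3 counts. The calls of FGF6 rested on 6 counts in the liver sample of fetus 3, without which they were lost.

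The intracellular FGF proteins are not secreted and act on voltage-gated sodium channels. FGF12 ranged from 8.86 to 14.1 CPM in the heart, above the 4.53 to 8.58 CPM of the gonad and the 3.21 to 6.61 CPM of the liver. Its log2 fold change of heart over liver was 1.001 (SE 0.22, adjusted p = 0.000445) and of heart over gonad 0.65 (SE 0.20, adjusted p = 0.0132), the latter being lost with fetus as a block (0.50, adjusted p = 0.203). FGF13 held 2 to 27 counts in the heart samples and 21 to 60 in the gonad samples, whereas the liver held 2 counts in all. The ratio of FGF13 counts to the liver was 30.0 for the heart (exact 95% interval of the counting error 8.08 to 251) and 48.7 for the gonad (13.3 to 404), with adjusted p = 1.67e-05 and 2.31e-06. FGF14 was highest in the liver, at 1.67 to 16.6 CPM with a median of 7.35 CPM, against 2.34 to 3.40 CPM in the gonad and 1.02 to 3.57 CPM in the heart. Gonad over liver had a log2 fold change of −1.47 (SE 0.41, adjusted p = 0.0036), although the groups overlapped. FGF11 ranged from 11.9 to 20.6 CPM in the gonad, from 5.17 to 15.3 CPM in the heart and from 0 to 7.70 CPM in the liver, and only the gonad over the liver was called (2.23, SE 0.69, adjusted p = 0.00838).

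Of the receptors, FGFR1, FGFR2 and FGFRL1 were highest in the gonad and FGFR3 and FGFR4 in the liver. FGFR2 (Entrez 404193), the receptor of FGF10 in epithelia, ranged from 234 to 289 CPM in the gonad with a median of 277 CPM. In the heart it ranged from 20.4 to 35.1 CPM and in the liver from 15.7 to 45.7 CPM. The gonad lay above both without overlap, with a log2 fold change of heart over gonad of −3.24 (SE 0.19, adjusted p = 2.26e-12) and of gonad over liver of 3.33 (SE 0.22, adjusted p = 5.16e-12). Heart and liver overlapped in FGFR2 and differed by 0.09 (SE 0.19, adjusted p = 0.733). The counts are per gene and do not separate the epithelial and mesenchymal splice forms of FGFR2.

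FGFR1, the receptor of mesenchymal cells, ranged from 128 to 202 CPM in the gonad, from 91.9 to 126 CPM in the heart and from 12.1 to 26.4 CPM in the liver. The liver was lower than the heart by 2.61 (SE 0.17, adjusted p = 8.64e-12) and lower than the gonad by 3.12 (SE 0.18, adjusted p = 6.61e-13) on the log2 scale. The heart lay just below the gonad without overlap (−0.52, SE 0.15, adjusted p = 0.00739), and this call was lost with fetus as a block (−0.39, adjusted p = 0.106).

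FGFR3 and FGFR4 were highest in the liver. FGFR3 (Entrez 281769), which restrains bone growth, ranged from 102 to 247 CPM in the liver with a median of 173 CPM, from 13.1 to 18.2 CPM in the gonad and from 3.32 to 10.2 CPM in the heart, without overlap between any organs. The log2 fold change of gonad over liver was −3.47 (SE 0.24, adjusted p = 1.13e-11), of heart over liver −5.03 (SE 0.24, adjusted p = 2.39e-14) and of heart over gonad −1.56 (SE 0.21, adjusted p = 1.91e-06). FGFR4 (Entrez 317696) followed the same order, with 19.1 to 55.5 CPM in the liver, 5.93 to 20.1 CPM in the gonad and 0.657 to 2.24 CPM in the heart. Its log2 fold change of heart over liver was −4.86 (SE 0.32, adjusted p = 7.0e-12) and of gonad over liver −1.97 (SE 0.30, adjusted p = 4.92e-06), where the highest gonad sample (fetus 7) passed the lowest liver sample (fetus 10). FGFRL1, a receptor without a kinase domain, ranged from 41.3 to 77.1 CPM in the gonad, from 26.2 to 33.6 CPM in the heart and from 11.4 to 27.6 CPM in the liver. The gonad was higher than both (log2 fold change of heart over gonad −0.90, SE 0.16, adjusted p = 7.35e-05), and the call of heart over liver (0.55, SE 0.17, adjusted p = 0.00847) was lost with DESeq2's size factors (0.41, adjusted p = 0.0544) and without fetus 3 (adjusted p = 0.0598). Those size factors lowered the heart over liver values of all genes by a median of 0.137.

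Of the Sprouty genes, SPRY1 and SPRY2 were highest in the gonad and SPRY3 in the liver. SPRY1 ranged from 53.2 to 94.1 CPM in the gonad with a median of 75.1 CPM, from 21.7 to 56.7 CPM in the heart and from 13.6 to 26.1 CPM in the liver. Its log2 fold change of heart over gonad was −0.9998 (SE 0.18, adjusted p = 7.97e-05) and of heart over liver 0.85 (SE 0.19, adjusted p = 0.000693). SPRY2 ranged from 34.2 to 50.7 CPM in the gonad, from 12.2 to 31.8 CPM in the heart and from 1.23 to 4.70 CPM in the liver, without overlap. The liver was lower in SPRY2 than the gonad by 3.99 (SE 0.27, adjusted p = 1.43e-11) and than the heart by 2.86 (SE 0.26, adjusted p = 1.64e-09) on the log2 scale. SPRY3 was highest in the liver and lowest in the heart, from 20.4 to 40.4 CPM in the liver, from 3.94 to 6.53 CPM in the gonad and from 0.920 to 2.49 CPM in the heart. For SPRY3 the log2 fold change of gonad over liver was −2.44 (SE 0.24, adjusted p = 7.71e-09) and of heart over liver −4.21 (SE 0.25, adjusted p = 9.12e-13).

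The SPRED genes, whose proteins bind the RAS inhibitor neurofibromin, differed in their order, with SPRED2 and SPRED3 lowest in the liver. SPRED2 ranged from 46.1 to 77.4 CPM in the gonad, from 26.1 to 31.9 CPM in the heart and from 10.2 to 18.1 CPM in the liver, without overlap, with a log2 fold change of gonad over liver of 2.20 (SE 0.14, adjusted p = 2.55e-12). SPRED3 held 42 to 99 counts in the gonad samples and 21 to 59 in the heart samples. In the liver, SPRED3 held 0 to 6 counts in the samples and 26 in the left-out column of fetus 9. Its log2 fold change of heart over liver was 3.68 (SE 0.62, adjusted p = 2.34e-05) and of gonad over liver 3.61 (SE 0.62, adjusted p = 2.84e-05), whereas heart and gonad differed by 0.07 (SE 0.48, adjusted p = 0.946). SPRED1 ranged from 14.5 to 31.9 CPM in the heart and from 14.5 to 20.9 CPM in the liver, which were not called apart (adjusted p = 0.245). In the gonad SPRED1 was at 8.35 CPM in fetus 1, below every other organ sample, and at 32.6 to 71.0 CPM in the other gonad samples. The call of gonad over heart for SPRED1 (log2 fold change of heart over gonad −0.90, adjusted p = 0.0103) was lost without fetus 4 (−0.70, adjusted p = 0.0625).

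**Figure D3:**
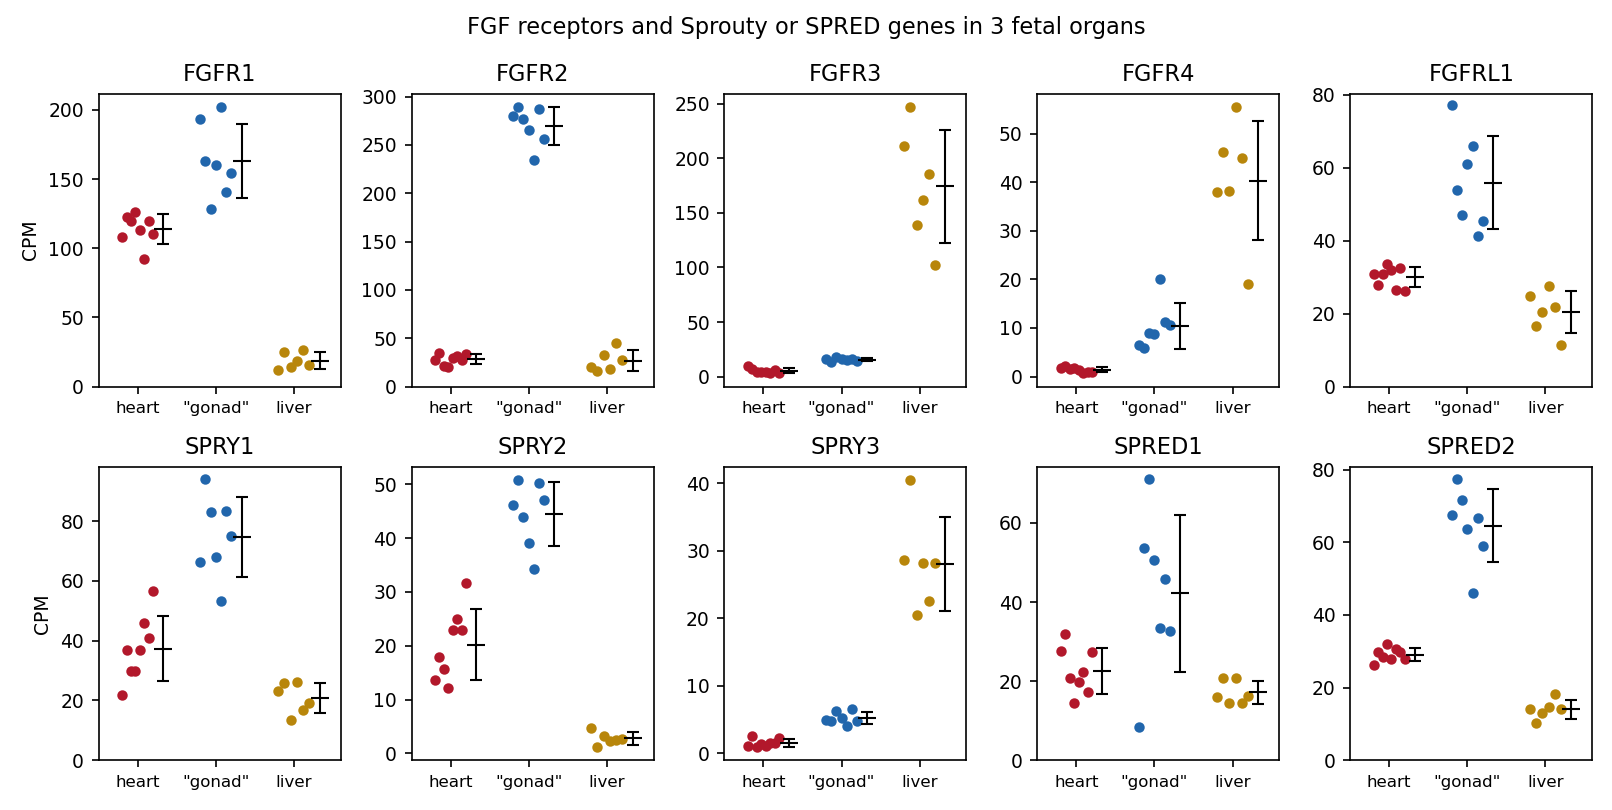
CPM of the 5 receptor genes and of 5 Sprouty and SPRED genes in the heart (8 samples), gonad (7) and liver (6), with 1 point per sample from the lightest to the heaviest fetus and a bar for the mean and SD. FGFR3, FGFR4 and SPRY3 have their highest points in the liver, and FGFR2, SPRY1, SPRY2 and SPRED2 in the gonad. The lowest SPRED1 point, at 8.35 CPM, is the gonad of fetus 1.

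Other genes of the pathway were taken from 3 lists, whose counts stand beside the shares of all genes given above (28.1% higher in the gonad and 30.8% in the liver between those organs, 20.6% in the gonad and 21.0% in the heart, and 25.4% in the heart and 28.5% in the liver) and medians over all genes of 0 for gonad over liver, −0.085 for heart over gonad and 0 for heart over liver. Of 7 targets and feedback genes, 5 were higher in the gonad than in the liver and 1 was lower, with a median log2 fold change of 1.73, and 3 were higher in the gonad than in the heart and 1 was lower (median of heart over gonad −0.87). Between heart and liver, 4 were higher in the heart and 1 in the liver (median 0.99). ETV4, a transcription factor that FGF signaling induces, averaged 85.1 ± 33.9 CPM over the 7 gonad samples, 11.8 ± 2.56 CPM over the 8 hearts and 2.27 ± 1.75 CPM over the 6 livers (± SD), a log2 fold change of gonad over liver of 5.24 (adjusted p = 2.62e-10). IL17RD, a membrane inhibitor of the pathway, was at 103 ± 18.3 CPM in the gonad against 18.8 ± 2.52 CPM in the heart and 4.84 ± 2.92 CPM in the liver. DUSP5, a phosphatase of nuclear ERK, instead had its lowest mean in the gonad, at 3.06 ± 0.957 CPM against 19.2 ± 3.02 CPM in the heart and 16.5 ± 19.3 CPM in the liver. The liver was uneven in DUSP5, with 1 count in each of fetuses 8 and 10 and 140 or more in the other samples.

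Of the 15 co-receptors, binding proteins and FLRT partners, 12 could be tested. In gonad over liver 8 were higher and 2 lower (median 1.55), in heart over liver 6 were higher and 4 lower (median 0.90), and in heart over gonad 3 were higher and 5 lower (median −0.082). KLB, the Klotho co-receptor of FGF19 and FGF21, averaged 48.3 ± 8.72 CPM over the livers, 1.56 ± 0.458 CPM over the gonad samples and 1.08 ± 0.299 CPM over the hearts (± SD), a log2 fold change of heart over liver of −5.48 (adjusted p = 6.32e-15). GPC4, a heparan sulfate proteoglycan, was at 85.5 ± 9.28 CPM in the heart against 16.6 ± 5.78 CPM in the gonad and 1.93 ± 0.977 CPM in the liver. FGFBP3, a carrier of secreted FGF, was at 0.416 ± 0.254 CPM in the heart and at 0 in every liver sample. Of 20 adaptors and RAS-MAPK transducers, 10 were higher and 3 lower in gonad over liver (median 0.37), 10 higher and 3 lower in heart over liver (median 0.53), and 7 higher and 7 lower in heart over gonad (median 0.13). MAPK3 (ERK1) was higher in the heart (log2 fold change 2.47) and the gonad (2.09) than in the liver, as were CBL (1.87 and 2.45), which tags receptors for degradation, and PLCG1 (0.97 and 2.29), a phospholipase that binds the receptor.

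In maternal blood, 6 members reached a mean of 1 CPM, and levels there were scaled within blood. SPRED2 ranged from 6.91 to 11.4 CPM, FGFRL1 from 2.42 to 6.19 CPM, SPRY2 from 2.56 to 6.30 CPM, SPRED1 from 1.47 to 4.50 CPM, FGF11 from 0.375 to 2.79 CPM and SPRY1 from 0.536 to 1.67 CPM. No secreted ligand reached this level in blood. FGF8, FGF19, FGF20 and FGF21 were at 0 in all 10 blood libraries, each of which would allow up to 3 counts by counting error, and FGF16 had 2 counts in 1 library. FGFR4 was counted in 1 blood library, with 8 counts.

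The second comparison followed the members along fetal weight, within each tissue and on CPM scaled within it. A linear term was tested in genes that reached 10 counts in 4 or more samples, which held 21 members in the heart, 25 in the gonad, 17 in the liver and 14 in blood. edgeR called 0 members in each tissue, where it called 0%, 0%, 0.677% and 0% of all genes. At an unadjusted p under 0.05 there were 3 members in the heart, 1 in the gonad, 2 in the liver and 0 in blood, against 22.7%, 4.25%, 6.96% and 9.69% of all genes, and DESeq2's Wald test called 2 members in the heart and 0 in the other tissues, where it called 10.4% of all genes in the heart, 0.200% in the gonad, 2.52% in the liver and 0.718% in blood. The median slope of the members was 0.0087 in the heart (log2 per 0.1 g), 0.00038 in the gonad, −0.095 in the liver and −0.050 in blood, against −0.019, 0.009, −0.0052 and 0.0018 over all genes.

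In the heart, the estimates of SPRY1 and SPRY2 were upward. SPRY1 was at 17.5, 29.3, 22.9 and 22.8 CPM in the ET_D7 fetuses 2, 3, 4 and 5 and at 29.1, 35.6, 32.6 and 44.8 CPM in the ET_D9 fetuses 6, 8, 9 and 10. The ranges touched only where fetus 3 passed fetus 6. The slope of SPRY1 was 0.23 (SE 0.055, unadjusted p = 0.00205, adjusted p = 0.119). SPRY2 was at 11.0, 14.3, 11.98 and 9.33 CPM in the ET_D7 fetuses and at 18.1, 19.3, 18.2 and 25.1 CPM in the ET_D9 fetuses, with no overlap. Its slope was 0.25 (SE 0.066, unadjusted p = 0.00392, adjusted p = 0.12). FGFR4, with 17 to 81 counts per heart sample, had a slope of −0.31 (SE 0.11, unadjusted p = 0.0211, adjusted p = 0.16). None of the 3 was called, and the adjusted p of SPRY1 and SPRY2 passed the threshold without fetus 3 (0.013 and 0.0253), in DESeq2 (0.00528 and 0.0102), and when the dependent heart column of fetus 1 was kept as an added sample (0.0395 for both). These settings called 21.9%, 10.4% and 6.77% of all genes. The heart of fetus 3 also had the lowest cardiomyocyte marker sum, 35990 CPM against 36880 to 51870 CPM in the other hearts. Of the 7 cardiomyocyte markers, 6 were lowest there. Its sum of the 5 mesenchyme markers was the highest, 3065 CPM against 1595 to 2896 CPM, with 2 of 5 highest there. The part of these lists in the calls was not tested. The 4 endothelium markers summed to 179, 223, 199 and 168 CPM in the ET_D7 hearts and to 236, 251, 245 and 323 CPM in the ET_D9 hearts (scale of the organ comparison), so this sum also parted the groups without overlap and was highest in fetus 10. Of the 4 markers, 2 parted the groups on their own and none was at 0, and their part in the values of SPRY1 and SPRY2 was not tested. With transfer group in the model, the slope of SPRY1 was 0.18 (adjusted p = 0.756) and of SPRY2 0.094 (adjusted p = 0.789).

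In the gonad, FGF20 had the only unadjusted p under 0.05. FGF20 was at 3.80, 4.79, 3.19 and 3.31 CPM in the ET_D7 fetuses 1, 3, 4 and 5 and at 1.98, 1.65 and 2.10 CPM in the ET_D9 fetuses 7, 9 and 10, so the groups did not overlap. The slope was −0.28 (SE 0.085, unadjusted p = 0.00788, adjusted p = 0.903). In the liver, FGFR3 had a slope of −0.24 (SE 0.096, unadjusted p = 0.0309, adjusted p = 0.617) and FGFR4 of −0.26 (SE 0.12, unadjusted p = 0.0453, adjusted p = 0.688). Both had their lowest liver level in fetus 10, at 77.5 CPM for FGFR3 and 14.4 CPM for FGFR4, and without fetus 10 the slopes were −0.12 and −0.015. The liver of fetus 10 also had the lowest hepatocyte marker sum, 26160 CPM against 28470 to 51070 CPM in the other livers, and the highest sum of the 6 erythroid markers, 3972 CPM against 2659 to 2956 CPM. Of the 6 hepatocyte markers 4 were lowest there and of the 6 erythroid markers 4 were highest, and their part in the slopes was not tested.

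A smooth curve of weight, a spline with 3 degrees of freedom, was fitted for changes that are not linear. It called 0 of 21 members in the heart (edgeR, 0% of all genes, with 3 members and 6.32% of all genes at an unadjusted p under 0.05), 3 of 25 in the gonad (17.6% of all genes), 1 of 17 in the liver (3.87%) and 0 of 14 in blood (0.129%, with 0 members and 9.77% of all genes at an unadjusted p under 0.05). The gonad calls were SPRED1 (adjusted p = 9.41e-09), FGFR4 (adjusted p = 5.43e-05) and FGF8 (adjusted p = 0.0139). SPRED1 was at 13.2 CPM in fetus 1, at 114 CPM in fetus 4 and at 53.6 CPM in fetus 10, and its call was lost without fetus 1 (adjusted p = 0.112). FGFR4 was at 33.7 CPM in fetus 7 and at 9.61 to 18.1 CPM in all others, and its call was lost without fetus 7 (adjusted p = 0.111). The gonad of fetus 7 also had the lowest endothelium sum (113 CPM against 144 to 180 CPM, with 3 of 4 markers lowest there) and the highest erythroid sum (31.4 CPM against 11.8 to 18.6 CPM, with 5 of 6 highest), and their part in FGFR4 was not tested. FGF8 was highest in fetuses 7 and 10, at 14.2 and 12.1 CPM, against 5.69 to 9.33 CPM in the others, and its call was lost without fetus 3, 4 or 5 (adjusted p = 0.205, 0.193 and 0.0957). The fit had 7 samples for 4 coefficients, and keeping the dependent gonad columns of fetuses 6 and 8 left 0 members called. The liver call, FGF11 (adjusted p = 0.0378), held 68, 132, 103, 0, 36 and 1 counts in fetuses 1 and 2 together, 3, 4, 5, 8 and 10, and was lost without fetus 10 (adjusted p = 0.0641). Without the liver samples of fetuses 1 and 2, 3, 4 or 8, too few counts remained to test FGF11.

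**Figure D4:**
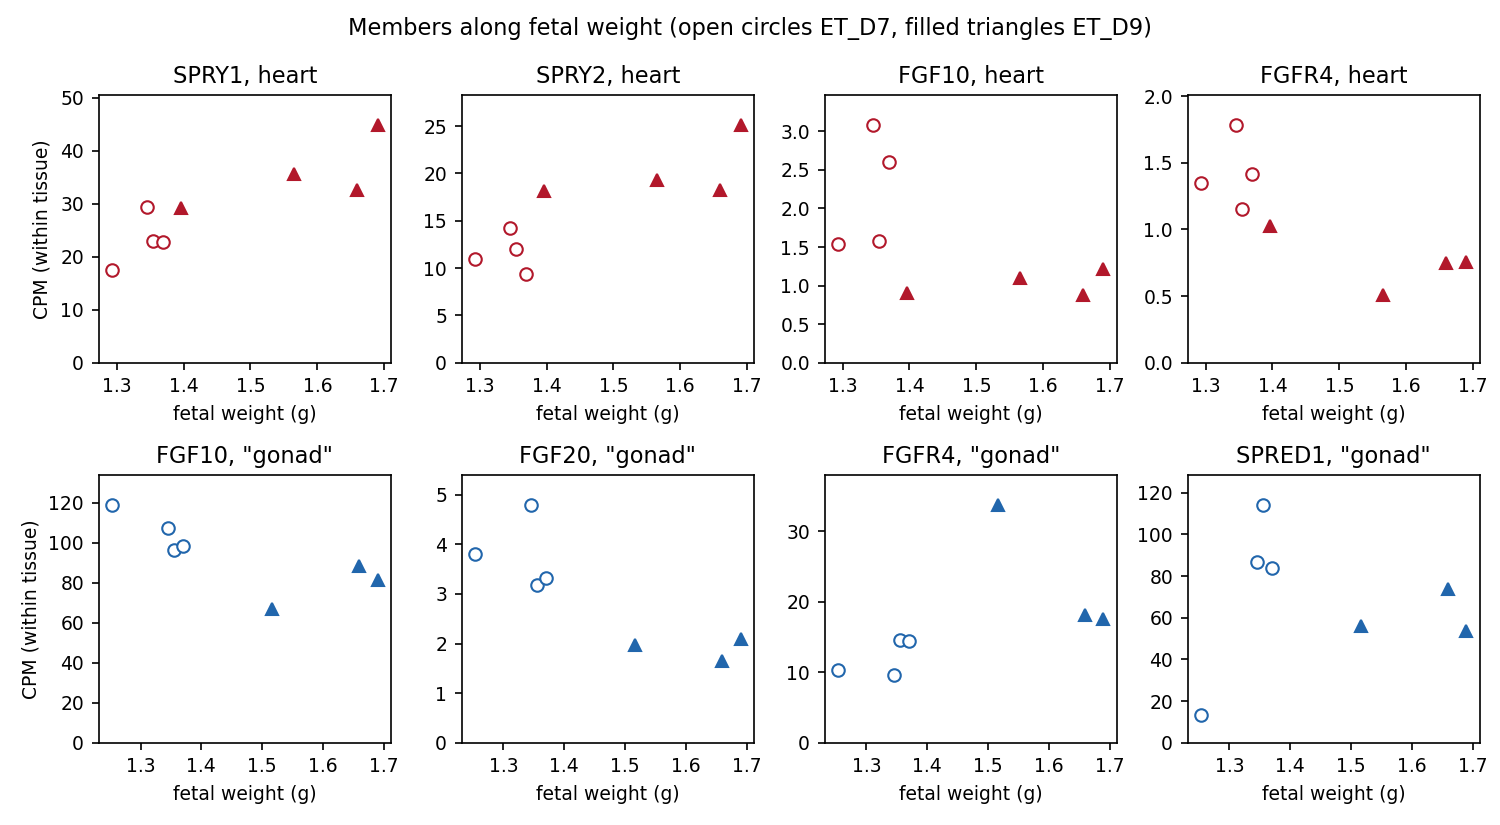
CPM scaled within the tissue against fetal weight in g, with 1 point per fetus, for 4 members in the heart (top) and 4 in the gonad (bottom). ET_D7 fetuses are open circles and ET_D9 fetuses filled triangles. SPRY2, FGF10 and FGFR4 in the heart and FGF10, FGF20 and FGFR4 in the gonad separate the transfer groups. The lowest SPRED1 point is fetus 1, and the highest FGFR4 point in the gonad is fetus 7.

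The third comparison set ET_D9 against ET_D7. edgeR called 0 members in each of the 4 tissues, where it called 0% of all genes in the heart, gonad and blood and 1.52% in the liver. At an unadjusted p under 0.05 there were 4 members of 21 in the heart, 4 of 25 in the gonad and 0 in the liver and in blood, against 16.8%, 7.62%, 7.37% and 7.60% of all genes, and DESeq2's Wald test called 3 members in the heart and 0 elsewhere, against 5.54% of all genes in the heart, 0.263% in the gonad, 2.78% in the liver and 0.399% in blood. In the heart these were SPRY2, with a log2 fold change of ET_D9 over ET_D7 of 0.78 (SE 0.17, unadjusted p = 0.00118, adjusted p = 0.206), FGF10, with −1.11 (SE 0.30, unadjusted p = 0.00488, adjusted p = 0.206), SPRY1, with 0.61 (SE 0.18, unadjusted p = 0.00884, adjusted p = 0.21), and FGFR4, with −0.92 (SE 0.30, unadjusted p = 0.0137, adjusted p = 0.216). FGF10 in the heart was at 1.54, 3.08, 1.57 and 2.61 CPM in ET_D7 and at 0.899, 1.10, 0.884 and 1.22 CPM in ET_D9, without overlap, on 20 to 140 counts per sample. DESeq2 called SPRY2, SPRY1 and FGF10 (adjusted p = 0.00485, 0.0469 and 0.0353), and without the heart of fetus 3 edgeR called SPRY2 (adjusted p = 0.0443) and SPRY1 (adjusted p = 0.0492), with 4.71% of all genes. The endothelium marker sums given above part the same hearts, at 168 to 223 CPM in ET_D7 and 236 to 323 CPM in ET_D9.

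In the gonad the 4 members were FGF20, with a log2 fold change of −0.96 (SE 0.24, unadjusted p = 0.00268, adjusted p = 0.53), FGFR4, with 0.93 (SE 0.28, unadjusted p = 0.00782, adjusted p = 0.564), FGF8, with 0.73 (SE 0.27, unadjusted p = 0.0235, adjusted p = 0.605), and FGF10, with −0.40 (SE 0.17, unadjusted p = 0.0435, adjusted p = 0.646). FGF10 in the gonad was at 119, 107, 96.1 and 98.1 CPM in ET_D7 and at 66.6, 88.3 and 81.2 CPM in ET_D9, so that the groups did not overlap. The marker sum of nephron progenitors, mesonephros and kidney was at 448 to 525 CPM in the ET_D7 gonads and at 419 to 454 CPM in the ET_D9 gonads, on the scale of the organ comparison. The sum of the 5 neural tissue markers was at 15.1 to 20.3 CPM in ET_D7 and 13.0 to 14.3 CPM in ET_D9, without overlap, and the part of either list in these values was not tested.

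The last comparison asked whether the slope on weight differed between the 3 organs. Of 27 members tested, FGF10 was called (F = 17.0, adjusted p = 0.00798, edgeR), where 1.72% of 19278 genes were, and 5 members had an unadjusted p under 0.05 against 13.0% of all genes. The slope of FGF10 was −0.28 (log2 per 0.1 g) in the heart (SE 0.14) and −0.11 in the gonad (SE 0.059), both from the fit without a filter on low counts, in which the liver slope was −2.76 (SE 0.71, adjusted p = 0.417) on the counts from 921 to 0 given above. The call was lost without fetus 8 (adjusted p = 0.12), without fetus 10 (adjusted p = 0.106) and with fetus as a block (adjusted p = 0.5). The other members with an unadjusted p under 0.05 were FGFR4 (0.00858), FGF9 (0.0149), SPRY1 (0.0216) and FGF23 (0.0454), with adjusted p of 0.176, 0.232, 0.277 and 0.371.

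Among the 3 pathway lists, edgeR called DUSP5 in the liver and none of the other 34 genes tested there, nor any of the 37 tested in the heart, 37 in the gonad and 31 in blood. At an unadjusted p under 0.05 there were 6 genes in the heart on weight, 2 in the gonad, 5 in the liver and 2 in blood, against 22.7%, 4.25%, 6.96% and 9.69% of all genes. DESeq2's Wald test called 3 in the heart, 0 in the gonad, 1 in the liver and 0 in blood, against 10.4%, 0.200%, 2.52% and 0.718%. DUSP5 held 1014, 140, 402 and 398 counts in the ET_D7 livers (fetuses 1 and 2 together, 3, 4 and 5) and 1 count in each of the ET_D9 livers (fetuses 8 and 10), with a slope of −2.93 (SE 0.39, adjusted p = 0.0145) and a log2 fold change of ET_D9 over ET_D7 of −8.92 (SE 1.09, adjusted p = 0.000723). The liver counts of DUSP5 thus stepped between 140 or more and 1. Another 333 genes of the table, none of them a member, held at most 2 counts in some liver libraries and at least 300 in all the others.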

How the data were processed

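Gene counts came from 36 libraries. Per the paper and labels, the authors checked reads with FastQC 0.11.9, trimmed them with Trimmomatic, mapped them with STAR 2.7.0b to ARS-UCD1.3 and counted them per Entrez gene with featureCounts (Subread 2.0.3). They deposited whole-number counts, with no normalization stated. Strand and multi-mapping settings are not given in the sources used here, so overlapping genes are uncertain. Between 47.2% and 87.9% of counts from 1 to 20 were even, so a count is not 1 molecule. Fold bounds and intervals took it as 1, cover counting error only and may be too tight. Totals were 20930367 to 35857434 in the heart, 22762065 to 39649051 in the gonad, 18231089 to 34454772 in the liver and 26602415 to 40812354 in blood. Mitochondrial genes took 17.1% to 57.3% of heart counts and 3.31% to 7.23% of gonad counts.

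Columns that followed weighted sums of others for most genes compared (deviation under 1) were left out or merged, which departs from the planned 26 libraries. edgeR 4.0.16 (R 4.3.3, TMM, quasi-likelihood) fitted 21 organ samples together over all genes with a count, and each tissue alone over genes that reached 10 counts in 4 or more samples. Tests were two-sided, with Benjamini-Hochberg adjustment over all genes of a fit. Gonad against liver and the weight slope in the heart were also run on simulated counts. Those counts had independent samples, the same dispersion for every gene and no dependent columns, so they do not show how the tests behave here. The spline, group, slope difference and block fits were not simulated. Fold bounds used 3 counts per library. The same fetuses gave several organs, so fetus numbers pair the samples. The 14 same-fetus pairs had deviations correlated between −0.212 and 0.282 (median 0.033). The 132 pairs of different fetuses lay between −0.499 and 0.405 (median −0.0036), with the merged liver sample counted as a different fetus throughout. DESeq2 1.42.0, other scalings and filters, a fetus block and each sample left out were alternatives. In the block fit, the gonads of fetuses 1 and 7, the hearts of fetuses 2 and 6 and the merged liver sample were each alone in their block. These samples therefore did not bear on organ differences there, and a call lost with the block can reflect their loss. Members that reached 1 CPM were described with values. Full statistics were planned for the 12 largest changes against both other organs and for any unadjusted p under 0.05 on weight or group, and those of other members were added after their values were seen. The members and lists were chosen with earlier results of these data known. Symbols came from RefSeq (ARS-UCD2.0). Sequences and exon lengths were not used here, so levels are not compared between genes.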

Additional observations from a re-analysis of the deposited data

Results flagged for a closer look

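Of 63 groups formed by a member and a tissue with a mean of at least 1 CPM, 4 held a sample that lay far from the others by Dixon's criterion, and chance gives about 1 such group in 20. FGF10 in the liver was highest in the sample of fetuses 1 and 2, at 45.1 CPM, against 14.8 CPM in the next. FGF2 in the liver was highest in fetus 5, at 6.68 CPM, against 2.06 CPM in the next. FGF22 in the liver was lowest in fetus 3, at 6.53 CPM, against 9.51 CPM in the next. FGFR4 in the gonad was highest in fetus 7, at 20.1 CPM, against 11.2 CPM in the next.

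The slope of FGF10 on fetal weight differed between the organs (edgeR, adjusted p = 0.00798), with the limits on that call given above.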

How the results depend on the processing

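The 67 calls of members in the 3 organ comparisons kept their direction with DESeq2's size factors (66 still called), DESeq2's Wald test (63), a filter of 10 counts in 8 libraries (63, with FGF3 and FGF6 not tested), mitochondrial genes out of the totals (67), all 26 deposited columns (67) and without the merged liver sample (66). Leaving out each fetus kept 63 to 67 calls, and FGF6 turned without fetus 3. With fetus as a block 57 calls were kept, FGF10 of heart over liver turned, and the members highest in the heart went from 4 to 2 (FGF16 and FGF18). With that block, the slope difference between organs called 0 members in place of 1.

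Members called on the linear weight term in the heart went from 0 to 2 with DESeq2's Wald test and to 2 with all deposited columns, and ranged from 0 to 2 with each sample left out. Between transfer groups in the heart they went to 3 with DESeq2's Wald test and ranged from 0 to 2 with each sample left out. With all deposited columns, 1 member was called between transfer groups in the gonad (FGF20), 1 on weight in the liver and 1 between groups there (FGF10 both times), 0 by the spline in the gonad and 0 by it in the liver, and 3 in the slope difference (FGF9, FGF10 and SPRY1). The liver spline called 2 members without the low-count filter (FGF2 and FGF10) and 0 to 1 with a sample left out. The slope difference called 0 to 1 with a fetus left out. Over all genes, the deposited columns moved calls on weight in the heart from 0 to 1100, by the gonad spline from 3082 to 0, and in the slope difference from 332 to 1217. Among the counts of members called in each comparison, no other moved by over 1.5 times. The 6 to 8 samples per organ and the overlap of weight with transfer group limit what can be told apart, and the cause of these shifts was not tested.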

Other observations

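The dependent columns left out of the comparisons held some members outside the common ratio. SPRED1 had 4017 counts in the gonad column of fetus 6 and 5339 in that of fetus 8. Fetuses 7, 9 and 10, whose weighted sum these columns followed for most genes compared, had 1667, 2334 and 1943. FGF5 had 38 counts in the gonad column of fetus 6 and 0 in that of fetus 8. SPRY3 had 0 counts in the heart column of fetus 1, against 18 or more in every heart sample used. SPRED3 had 26 counts in the liver column of fetus 9, against at most 6 in the liver samples used. In the pair of liver columns, FGF10 had 616 counts in fetus 1 and 1226 in fetus 2. FGF2 had 8 and 76 counts in the same 2 columns, and FGF8 had 22 and 0.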
